A study of Mus musculus with 8 samples.

Results

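Fetal plasma protein and fibrinogen genes were examined in the gravid d18.0 mouse uterus, in RNA of 4 Cox-1 KO and 4 wild-type mice. The genes were Alb, Afp, Ttr, Fga, Fgb, Fgg, Trf, Ambp, Ahsg and Slco1b2, 10 in all, and a probe set was taken when the platform annotation gave it a single one of these symbols. Of the 28000 probe sets in the deposited table, 15 met this rule, for 8 of the 10 genes. Afp had 3 probe sets, Ttr 4, Slco1b2 3 and Alb, Fga, Fgb, Fgg and Ambp 1 each. No probe set carried the symbol Ahsg, and the only one for Trf was annotated to both Trf and Srprb, so it is given apart and counted for neither gene. These genes were chosen by their signals on the 8 arrays, and so the pattern over arrays and the difference between genotypes that goes with it are described here and support nothing by themselves.

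The Cox-1 KO mice lacked Ptgs1, the gene of cyclooxygenase-1, and had a C57BL/6 x Sv129 background per the labels (129P2 in place of Sv129 in the methods), whereas the wild-type mice were C57BL/6. Genotype and background therefore cannot be told apart. All mice were females of 6 to 16 weeks by their labels, no treatment was given, and each array held RNA of a single uterus from which the fetuses, fetal membranes and placenta had been taken off. Signal is the MAS5 intensity of an Affymetrix mouse array, scaled to a mean target of 1000, and a signal under 100 was read as near background because the table holds no detection calls. Ptgs1 had signals of 88, 122, 76 and 136 in Cox-1 KO uteri 1 to 4 and 7048, 10610, 10756 and 10508 in wild-type uteri 1 to 4, which fits the labels. The defining uterine and smooth muscle genes were present on every array. The summed signal of 12 of them, among them Pgr, Hoxa10, Myh11 and Acta2, was 300589 to 320694 in Cox-1 KO and 295726 to 326060 in wild-type uteri, with a median log2 range of 0.29 over the 8 arrays.

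Plasma proteins such as albumin, transthyretin, transferrin and the 3 fibrinogen chains are made by hepatocytes after birth. Before birth the visceral endoderm of the yolk sac and the fetal liver make them, with alpha-fetoprotein as the main albumin-like protein of the fetus. Transcription of these genes in liver and yolk sac depends on shared nuclear factors, among them HNF1, HNF4, FOXA and C/EBP proteins.

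The start regions of these genes are shown first because they are a feature the choice of genes did not use. RefSeq windows of GRCm38.p6, reaching from 250 bases before to 50 bases after the annotated start, matched 8 of the 10 genes, all but Ttr and Trf. For HNF1 only GTTAAT, a part of its site, was searched, and not the whole site. This motif, in either orientation, was in 5 of the 8 windows and in 7.10% of all 32851 windows of this length. The 5 windows are those of Alb (chr5:90460620-90460919, plus strand), Afp (chr5:90490464-90490763, plus strand), Fga (chr3:83025903-83026202, plus strand), Fgb (chr3:83049814-83050113, minus strand) and Slco1b2 (chr6:141629268-141629567, plus strand). They are printed 5′ to 3′ along the gene, with the motif in capitals (ATTAAC where it lies on the other strand).
Alb: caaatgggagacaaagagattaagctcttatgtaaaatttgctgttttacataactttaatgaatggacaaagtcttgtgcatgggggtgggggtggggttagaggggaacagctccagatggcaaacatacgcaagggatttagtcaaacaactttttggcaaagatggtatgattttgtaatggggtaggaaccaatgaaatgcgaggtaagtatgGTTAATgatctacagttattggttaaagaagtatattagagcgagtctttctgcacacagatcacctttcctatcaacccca
Afp: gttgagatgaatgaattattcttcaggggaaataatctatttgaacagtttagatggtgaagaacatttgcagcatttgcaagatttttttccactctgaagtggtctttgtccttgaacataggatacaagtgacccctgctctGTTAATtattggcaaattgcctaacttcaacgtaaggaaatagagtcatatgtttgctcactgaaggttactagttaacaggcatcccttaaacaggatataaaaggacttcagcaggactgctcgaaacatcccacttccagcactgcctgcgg
Fga: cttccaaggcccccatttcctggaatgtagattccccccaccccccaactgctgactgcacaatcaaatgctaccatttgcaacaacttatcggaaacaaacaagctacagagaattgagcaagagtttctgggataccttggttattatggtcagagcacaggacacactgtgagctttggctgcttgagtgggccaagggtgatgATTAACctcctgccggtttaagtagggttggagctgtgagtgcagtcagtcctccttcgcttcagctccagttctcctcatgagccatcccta
Fgb: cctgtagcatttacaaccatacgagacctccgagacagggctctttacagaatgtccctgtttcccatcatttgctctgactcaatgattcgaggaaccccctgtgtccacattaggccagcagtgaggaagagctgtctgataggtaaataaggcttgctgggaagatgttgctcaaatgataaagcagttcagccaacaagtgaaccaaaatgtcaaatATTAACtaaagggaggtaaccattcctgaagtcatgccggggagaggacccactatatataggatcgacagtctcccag
Slco1b2: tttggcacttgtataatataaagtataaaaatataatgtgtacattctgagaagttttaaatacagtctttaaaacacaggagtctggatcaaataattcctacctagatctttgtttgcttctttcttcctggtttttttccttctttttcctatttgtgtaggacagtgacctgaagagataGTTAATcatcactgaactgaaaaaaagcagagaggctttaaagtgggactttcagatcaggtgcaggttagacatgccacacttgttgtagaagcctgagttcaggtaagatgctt
The motif began 32 bases before the annotated start in Alb, 105 in Afp, 43 in Fga, 29 in Fgb and 66 in Slco1b2. The FOXA motif TGTTTNC was in 7 of the 8 windows, against 20.5% of all windows, and was missing from that of Fgg. The C/EBP motif TTGCNNAA was in 5, those of Alb, Afp, Fga, Fgb and Ahsg, against 10.8% of all windows. The HNF4 motif AAGTCCA was in none of the 8 and in 4.17% of all windows, and the TATA box TATAAA was in 2, those of Afp and Slco1b2, against 13.6%. Both strands were searched for all 5 motifs, and no match overlapped a match of another motif. The windows held a median of 3 CpG dinucleotides, against 7 in all windows, and the window of Slco1b2 held none. Their median GC content was 48%, against 52.7% in all windows. It was 40% in Alb and Afp, 50% in Fga, 46.3% in Fgb and 35.3% in Slco1b2. The motif shares were not adjusted for base composition. A match describes these letters only, and no test was made of these shares.

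All 15 probe sets had the same 4 arrays on top, those of Cox-1 KO uteri 1, 3 and 4 and wild-type uterus 4. Cox-1 KO uterus 2 and wild-type uteri 1 to 3 were below them in every case. Cox-1 KO uterus 2 therefore stood apart within its genotype, as did wild-type uterus 4. On the log2 scale Cox-1 KO uterus 2 was set apart from the other 3 by Dixon's criterion for 12 of the 14 probe sets that passed the filter on low signal, against 5.54% of all probe sets with 1 Cox-1 KO array set apart. Wild-type uterus 4 was set apart for 8 of the 14, against 5.59% with 1 wild-type array set apart. Signals under 100 entered as measured, and the genes were chosen by these signals, so both counts only describe them. Genotypes overlapped for all 14, whereas 4.41% of all 26444 probe sets that passed had genotypes that did not overlap. RNA of a whole uterus cannot tell more cells that make a transcript from more transcript per cell.

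**Figure D1:**
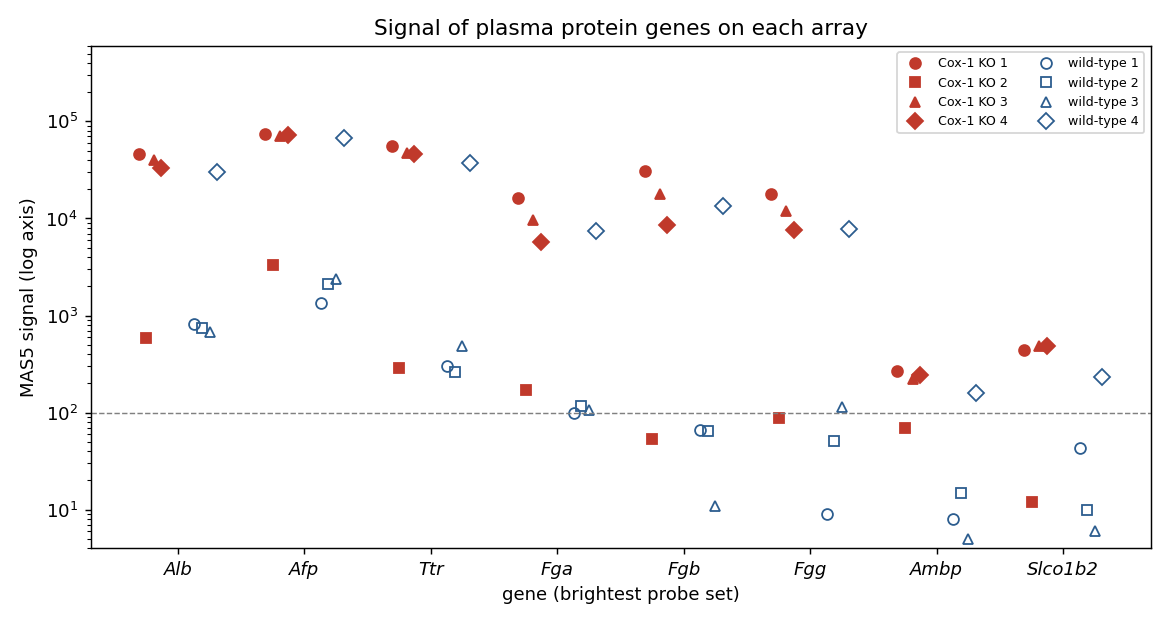
MAS5 signal (log axis) of the brightest probe set of each gene, with a point for each array, Cox-1 KO (filled) left of wild-type (open), n = 4 each, and a dashed line at 100. For each of the 8 genes the 4 lower points are those of Cox-1 KO uterus 2 and wild-type uteri 1 to 3. For Fgb, Ambp and Slco1b2 all 4 lie under the dashed line, where their order has no meaning.

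Albumin (probe set 1425260_at), the main carrier protein of adult plasma, had signals of 46060, 591, 39800 and 33370 in Cox-1 KO uteri 1 to 4. In wild-type uteri 1 to 4 Alb had 811, 738, 669 and 30053. The 4 low arrays lay within a narrow band, with wild-type uterus 1 highest and Cox-1 KO uterus 2 lowest, and all were above 100. Mean Alb signal was 29955 ± 20250 in Cox-1 KO and 8068 ± 14657 in wild-type uteri (SD, n = 4 each), so that the spread within a genotype was about as large as the difference.

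Alpha-fetoprotein, the fetal counterpart of albumin, was measured by 3 probe sets. The brightest, 1416646_at, gave 75030, 3292, 70005 and 71820 in Cox-1 KO uteri 1 to 4, against 1357, 2107, 2368 and 66979 in wild-type uteri 1 to 4. Of the other Afp probe sets, 1416645_a_at gave 51203, 6441, 50393 and 49884 in Cox-1 KO, against 2578, 3973, 4964 and 47724 in wild-type uteri. The third, 1436879_x_at, gave 56200, 1845, 52267 and 51784 in Cox-1 KO, against 763, 897, 1444 and 50059 in wild-type uteri. Unlike Alb, the low arrays were graded for Afp. In all 3 probe sets Cox-1 KO uterus 2 was the highest of the 4 and wild-type uterus 1 the lowest, with a ratio between them of 2.42 to 2.50. These probe sets share a transcript and are not independent of each other. For Alb the same ratio, Cox-1 KO uterus 2 over wild-type uterus 1, was 0.729.

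Transthyretin, which carries thyroid hormone and retinol-binding protein, had a wider range. The brightest of its 4 probe sets, 1454608_x_at, gave 55560, 290, 47797 and 45960 in Cox-1 KO uteri 1 to 4 and 301, 264, 483 and 37669 in wild-type uteri 1 to 4. The low arrays thus lay close to background, and their order differed between the Ttr probe sets. On 1451580_a_at the signals were 43338, 245, 31685 and 25980 in Cox-1 KO and 219, 198, 179 and 19255 in wild-type uteri. On 1459737_s_at they were 41098, 300, 35145 and 32830 in Cox-1 KO and 217, 220, 197 and 26150 in wild-type uteri. On 1455913_x_at they were 31925, 202, 27760 and 26662 in Cox-1 KO and 87, 121, 149 and 20751 in wild-type uteri. Wild-type uterus 4 was below Cox-1 KO uteri 1, 3 and 4 on all 4 Ttr probe sets.

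The probe set annotated to both Trf, which encodes the iron carrier transferrin, and Srprb, a subunit of the signal recognition particle receptor, shared the order of the arrays. It gave 57708, 4228, 51037 and 45897 in Cox-1 KO uteri 1 to 4 and 4818, 4440, 4129 and 44891 in wild-type uteri 1 to 4. The highest array was 14.0-fold above the lowest, and the low arrays differed little from each other, with wild-type uterus 1 at 1.14 times Cox-1 KO uterus 2. Which of the 2 transcripts gave this signal cannot be told.

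The fibrinogen genes encode the 3 chains that assemble into the clottable protein of plasma, Fga the alpha, Fgb the beta and Fgg the gamma chain. Fgb (1428079_at) had signals of 30769, 54, 17777 and 8630 in Cox-1 KO uteri 1 to 4 and 66, 65, 11 and 13601 in wild-type uteri 1 to 4. All 4 low arrays were under 100 for Fgb, so its range over the arrays was at least 308-fold. Fga (1424279_at) had 16107, 172, 9758 and 5685 in Cox-1 KO and 100, 117, 106 and 7432 in wild-type uteri. Fgg (1416025_at) had 17845, 88, 12007 and 7602 in Cox-1 KO and 9, 51, 114 and 7724 in wild-type uteri. For all 3 chains Cox-1 KO uterus 1 was highest and wild-type uterus 4 lay above Cox-1 KO uterus 4. No other of the 15 probe sets had wild-type uterus 4 above Cox-1 KO uterus 4.

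Ambp, the precursor of alpha-1-microglobulin and the protease inhibitor bikunin, and Slco1b2, a hepatocyte uptake transporter for bile acids and other organic anions, were near background on the low arrays. Ambp (1416649_at) had 268, 70, 224 and 242 in Cox-1 KO uteri 1 to 4 and 8, 15, 5 and 158 in wild-type uteri 1 to 4. The brightest Slco1b2 probe set, 1449394_at, had 441, 12, 486 and 483 in Cox-1 KO and 43, 10, 6 and 232 in wild-type uteri. Of the other Slco1b2 probe sets, 1452494_s_at had 401, 8, 374 and 345 in Cox-1 KO and 4, 51, 22 and 237 in wild-type uteri. The third, 1427826_a_at, had 196, 6, 164 and 177 in Cox-1 KO and 28, 13, 18 and 94 in wild-type uteri and did not pass the filter. Every low array was under 100 for both genes, so the order among them has no meaning here, and the ranges are lower bounds, at least 2.68-fold for Ambp and at least 4.86-fold for Slco1b2.

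The comparison of Cox-1 KO with wild-type uterus asks which uterine genes differ near term in mice that lack cyclooxygenase-1 and give birth late. Mean signal was higher in the Cox-1 KO uterus for all 15 probe sets, as 3 Cox-1 KO arrays and 1 wild-type array were high. On the log2 scale, fold changes of the 14 probe sets tested were 2.10 to 4.65, with a median of 3.43, against a median of -0.03 for all 26444 probe sets. With limma and Benjamini-Hochberg adjustment over all of them, none of the 14 passed an adjusted p under 0.05, the lowest being 0.435, and 0.0113% of all probe sets passed (0.00378% higher and 0.00756% lower in Cox-1 KO). At an unadjusted p under 0.05 8 of the 14 were higher in the Cox-1 KO uterus, against 3.69% of all probe sets in this direction and 8.81% in either. Apart from Ambp, at 0.00511, these 8 unadjusted p values of limma were 0.037 to 0.0492, close to the cutoff. The count was 14 without Cox-1 KO uterus 2 or without wild-type uterus 4, and 1 without any 1 of the other 6 arrays. The thresholds of the methods, a p of 0.05 or less with a ratio of 1.5 or more, were passed by 1 of the 14, that of Ambp, against 0.862% of all, and by none after adjustment. For Ambp, which also had the lowest adjusted p with limma, all 4 low arrays were under 100. Its log2 fold change was 3.35 as measured and 0.80 with signals under 100 set to 100. The filter asked for 100 or more on at least 4 arrays, which 4 of the 14 met through their 4 high arrays alone, so these counts are given as a description. The median log2 fold change was 4.68 without Cox-1 KO uterus 2 (lowest adjusted p = 0.148 with limma) and 4.78 without wild-type uterus 4 (0.0966), and no probe set passed in either case.

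The genes differed widely in their range over the arrays. Taken as the log2 ratio of the highest to the lowest array with signals under 100 set to 100, the median range of the 14 probe sets was 6.81, against 0.54 for all probe sets. A highest array at least 4-fold above the lowest was found for 13 of the 14, all but Ambp, and for 1.59% of all probe sets. Fgb reached at least 308-fold, Ttr 210-fold on its brightest probe set, Fgg at least 178-fold and Fga 161-fold. The other Ttr probe sets reached 209-fold, 242-fold and at least 319-fold. Alb reached 77.9-fold and Afp 55.3-fold, and the other Afp probe sets 19.9-fold and 73.7-fold. The narrow range of Ambp and Slco1b2 goes with their low top signal, which leaves little room above 100. The spread within a genotype was equally wide, with a median SD of 3.0 among Cox-1 KO and 2.96 among wild-type arrays on the log2 scale, against 0.168 and 0.166 for all probe sets.

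**Figure D2:**
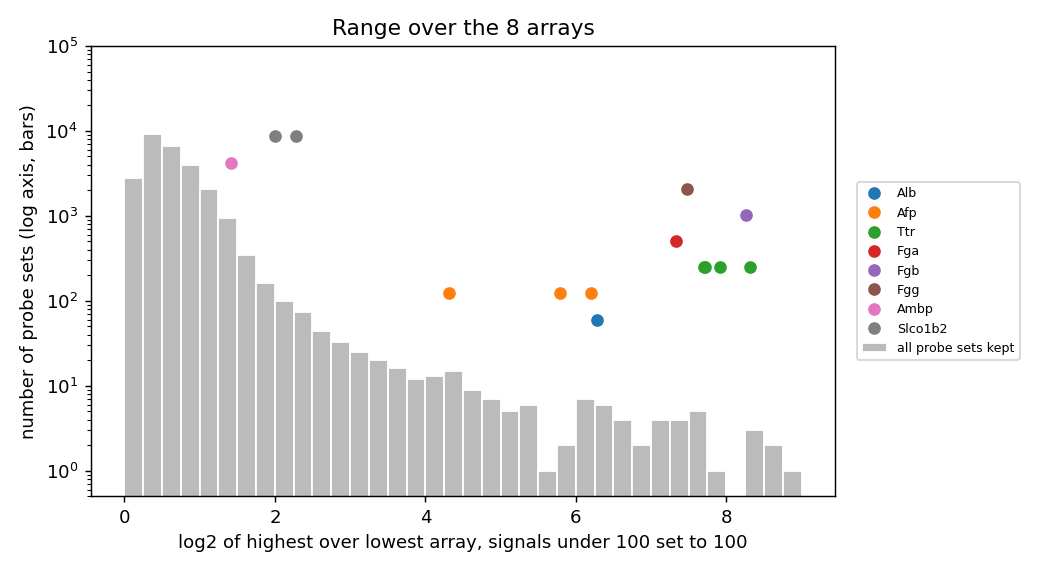
Range over the 8 arrays as log2 of the highest over the lowest signal (x axis). Grey bars count all 26444 probe sets that passed the filter (log axis), and coloured points mark the 14 probe sets of the plasma protein genes, whose height on the page carries no value. Of these, the fibrinogen and Ttr probe sets lie farthest right, at 7.33 to 8.32, and Ambp farthest left, at 1.42.

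The residual level, given as a percent of the same probe set's highest signal so that no probe set is set against another, differed between genes as well. On Cox-1 KO uterus 2 the brightest probe set of Afp kept 4.39% and Alb 1.28%, and Ttr 0.522% and Fga 1.07%. On wild-type uterus 1 Afp kept 1.81% and Alb 1.76%, while Ttr kept 0.542% and Fga 0.621%. On wild-type uterus 3 Afp kept 3.16%, Alb 1.45%, Ttr 0.869% and Fga 0.658%. Fga had 100, 117 and 106 on wild-type uteri 1 to 3, at the edge of background, so its percents there are not firm. Which of Afp and Alb kept more depended on the Afp probe set. On 1436879_x_at Afp kept 1.36% on wild-type uterus 1 and 1.60% on wild-type uterus 2, no more than Alb, and on 1416645_a_at it kept 5.03% and 7.76%. Fgb, Fgg, Ambp and Slco1b2 had signals under 100 on all or most of these arrays, which allow no residual level to be given.

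Among the 4 high arrays the genes also fell into different proportions. Wild-type uterus 4 had 89.3% of the signal of the highest array for Afp, 67.8% for Ttr and 65.2% for Alb. For the fibrinogen chains it had 46.1% in Fga, 44.2% in Fgb and 43.3% in Fgg, close to 47.7% for Slco1b2 and below 59.0% for Ambp. Cox-1 KO uterus 4 had 95.7% for Afp, 82.7% for Ttr and 72.4% for Alb, but 42.6% for Fgg, 35.3% for Fga and 28.0% for Fgb. The 3 fibrinogen chains thus kept close to each other and below the other 5 genes on Cox-1 KO uterus 4. On Cox-1 KO uterus 3 they had 57.8 to 67.3%, and Alb 86.4%. Each of these values rests on a single uterus, so no error can be given, and the 4 Ttr probe sets ranged from 44.4 to 67.8% on wild-type uterus 4. The top signals of Afp, at 66979 to 75030, come near the highest signal of any probe set on an array, 77534 to 93060, and whether its ratios are compressed there was not tested.

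**Figure D3:**
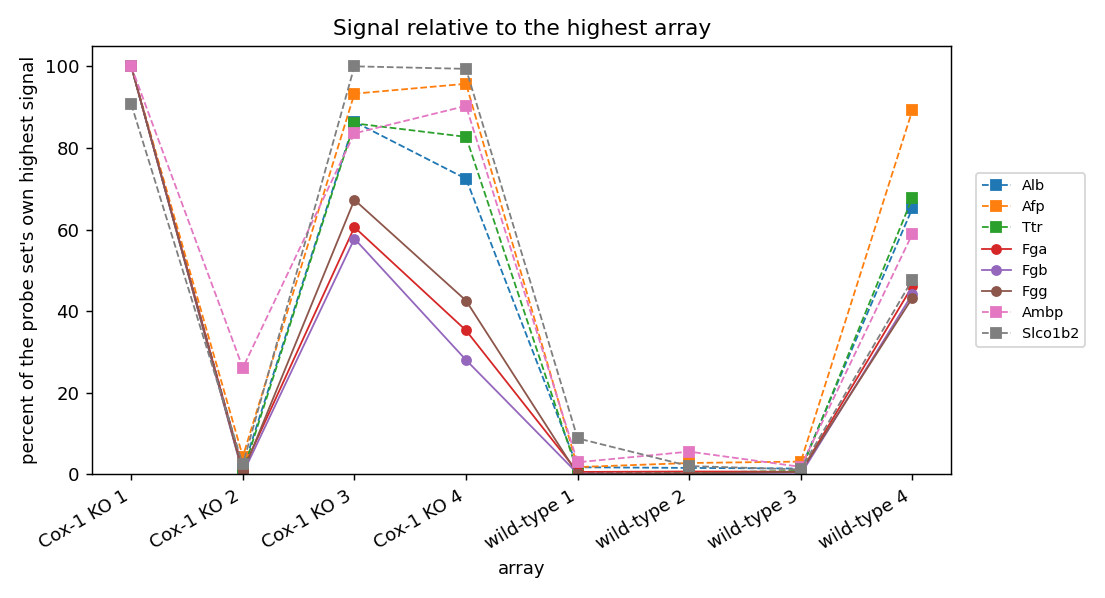
Signal of the brightest probe set of each gene on each array, as percent of its own highest signal (y axis), with Cox-1 KO arrays left of wild-type arrays; lines only join the points of a gene, and signals under 100 are drawn as measured. On Cox-1 KO uterus 4 the fibrinogen chains (circles) lie at 28.0 to 42.6% and the other genes (squares) at 72.4% or more.

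Neighbours in the genome were compared because Alb and Afp lie side by side, as do the 3 fibrinogen genes. Afm, which encodes the vitamin E-binding protein afamin and follows Afp, had 537, 50, 406 and 270 in Cox-1 KO uteri 1 to 4 and 56, 85, 61 and 331 in wild-type uteri 1 to 4. The same 4 arrays were on top for Afm. The next measured genes on the far sides did not share this order. Ankrd17, an ankyrin repeat gene beside Alb, had a range of 1.11-fold over the 8 arrays, at 3352 to 3719 in Cox-1 KO and 3423 to 3608 in wild-type uteri. Rassf6, beyond Afm, had 1100, 508, 751 and 503 in Cox-1 KO and 390, 486, 496 and 626 in wild-type uteri. Beside the fibrinogen genes, Plrg1, a splicing factor, ranged over 1.22-fold and Lrat, which esterifies retinol, over 1.51-fold.

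Other genes of the same biology were taken from lists, which like the genes above were drawn up with earlier results of these arrays known. A probe set was counted as having the array pattern when wild-type uterus 4 was at least 4-fold above each other wild-type array and Cox-1 KO uterus 2 at least 4-fold below each other Cox-1 KO array, with signals under 100 set to 100. Genes with a low signal on wild-type uterus 4, such as Ambp and Slco1b2, could not meet it whatever their order of arrays. This held for 83 of all probe sets, or 0.314%, and for 11 of the 14 of the plasma protein genes. Of 28 further carrier and acute phase proteins 17 had a probe set that passed the filter, 3 had the pattern, and none passed an adjusted p under 0.05 in either direction (median log2 fold change 0.86). Serpina1b, an alpha-1-antitrypsin, had 14405, 141, 11174 and 9007 in Cox-1 KO uteri 1 to 4 and 68, 95, 52 and 8237 in wild-type uteri 1 to 4. Igfbp1, an IGF-binding protein of liver and decidua, had 3066, 20, 1479 and 1698 in Cox-1 KO and 22, 28, 10 and 532 in wild-type uteri. Itih3, a heavy chain that binds bikunin and hyaluronan, had 1924, 85, 1828 and 716 in Cox-1 KO and 45, 104, 56 and 1017 in wild-type uteri. Not all secreted carriers followed, as Rbp4, the plasma carrier of retinol, ranged over 1.47-fold, at 34145 to 39535 in Cox-1 KO and 26827 to 32440 in wild-type uteri.

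Of 25 genes of coagulation and fibrinolysis 19 had a probe set and 17 passed the filter, 4 had the array pattern and none passed in either direction (median log2 fold change 0.52). F2, the gene of prothrombin, which as thrombin cleaves fibrinogen, had 7510, 196, 4474 and 2954 in Cox-1 KO uteri 1 to 4 and 122, 80, 70 and 2984 in wild-type uteri 1 to 4. For F2, too, wild-type uterus 4 lay just above Cox-1 KO uterus 4. This order was not particular to clotting genes, as Itih3, Foxa2 and Cubn had it too, while Serpind1 and Kng1 did not. Serpind1, the thrombin inhibitor heparin cofactor II, had 1781, 164, 1368 and 1128 in Cox-1 KO and 48, 23, 79 and 1024 in wild-type uteri. Kng1, the kininogen gene, had 13438, 1441, 10529 and 7214 in Cox-1 KO and 916, 1077, 1436 and 6633 in wild-type uteri. F3, the tissue factor that starts clotting, ranged over 1.13-fold, and F13a1, which crosslinks fibrin, over 1.20-fold.

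Of 20 nuclear factors of liver and yolk sac 12 passed the filter, 1 had the array pattern and none passed the test in either direction (median log2 fold change 0.05). Their median log2 range over the arrays was 1.07, against 0.54 for all probe sets. Hnf4a, a nuclear receptor of liver and visceral endoderm, had 1710, 31, 628 and 758 in Cox-1 KO uteri 1 to 4 and 14, 18, 33 and 634 in wild-type uteri 1 to 4. Foxa2, a forkhead factor, had 717, 76, 377 and 255 in Cox-1 KO and 76, 94, 116 and 378 in wild-type uteri. Nr1h4, the bile acid receptor, had 281, 105, 233 and 165 in Cox-1 KO and 41, 17, 98 and 130 in wild-type uteri. The same 4 arrays were on top for these 3 factors and for Foxa3, another forkhead factor, which had 221, 37, 109 and 119 in Cox-1 KO and 44, 61, 60 and 100 in wild-type uteri. Zbtb20, a repressor of Afp in liver, ranged over 1.59-fold, and Cebpb over 1.18-fold. Of the receptors of plasma proteins 12 of 14 passed the filter, 3 had the pattern and none passed (median log2 fold change 0.18). These were Cubn and Amn, which together form the receptor cubam, and Lrp2 (megalin), all endocytic receptors of absorptive epithelia. Cubn had 12360, 159, 7441 and 5642 in Cox-1 KO and 86, 29, 131 and 5883 in wild-type uteri. Fcgrt, which returns albumin to the circulation, ranged over 1.53-fold, and Tfrc, the transferrin receptor, over 1.47-fold. Of 15 other transporters of organic anions 6 passed the filter, and none had the array pattern or passed (median log2 fold change 0.14). Slco2a1, a prostaglandin transporter, had 5098, 3761, 4123 and 3372 in Cox-1 KO and 2345, 3098, 3631 and 3935 in wild-type uteri. Abcc2, an export pump for conjugated anions, had 209, 42, 160 and 160 in Cox-1 KO and 46, 65, 24 and 103 in wild-type uteri, with the same 4 arrays on top as for Ambp and Slco1b2. Slco3a1 ranged over 1.98-fold.

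**Figure D4:**
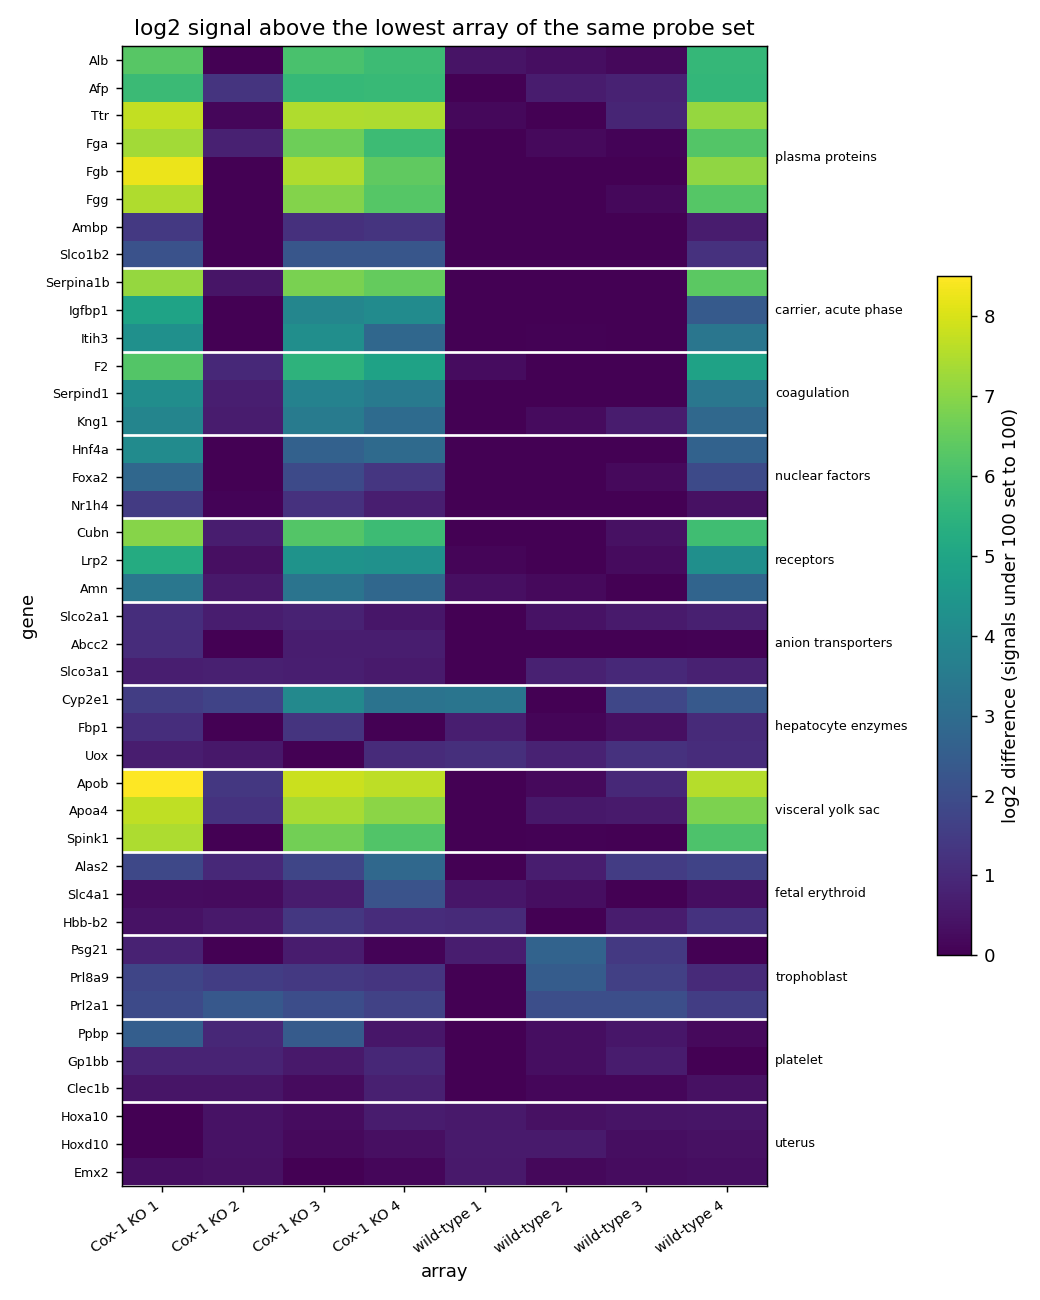
log2 signal of each gene above the lowest array of the same probe set (colour, signals under 100 set to 100), on each array, Cox-1 KO left of wild-type. The 8 plasma protein genes stand above the 3 genes with the largest range of each other list, a gene in several lists being drawn once. Cox-1 KO uteri 1, 3 and 4 and wild-type uterus 4 are bright for Serpina1b, F2, Cubn, Apob and the plasma proteins other than Ambp and Slco1b2. Ambp reaches at most 1.42 and Slco1b2 2.28 on this scale. The uterine genes are even.

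Markers of other cells that a gravid uterus could hold were set beside these values, and their part in the result was not tested. For visceral yolk sac epithelium 18 of 20 genes passed the filter, 9 had the array pattern and none passed an adjusted p under 0.05 (median log2 fold change 1.76). Their summed signal was 168817, 18802, 118542 and 91943 in Cox-1 KO uteri 1 to 4 and 14553, 17846, 17218 and 88823 in wild-type uteri 1 to 4. In it Apob, the core protein of secreted lipoproteins, had 45088, 325, 28104 and 25125 in Cox-1 KO and 124, 144, 242 and 23103 in wild-type uteri. Apoa4, another apolipoprotein, ranged over 207-fold and Spink1, a trypsin inhibitor, over at least 176-fold. Of the 168817 summed in Cox-1 KO uterus 1, Apob gave 45088 and Apoa4 31859. Not all genes of the list followed, as Tmprss2 ranged over 1.38-fold and Slc39a4 over 1.80-fold. Whether this sum follows yolk sac content was not tested. Cubn and Amn stand in this list and in that of the receptors. Of 21 hepatocyte enzymes 9 had a probe set, 7 passed the filter and none had the array pattern. Their summed signal was 4446 to 7349 in Cox-1 KO and 3922 to 5508 in wild-type uteri. Much of it came from Tdo2, at 2484 to 2987 in Cox-1 KO and 2186 to 2800 in wild-type uteri. Whether the sum follows hepatocyte content was not tested. Cyp2e1, a cytochrome of hepatocytes that other tissues also express, had 556, 624, 3059 and 1793 in Cox-1 KO and 1858, 189, 669 and 990 in wild-type uteri. Fbp1 had its highest signal at 243 and Uox at 347.

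Of 15 fetal erythroid genes 6 had a probe set and 4 passed the filter. They had no array pattern, with a summed signal of 1412 to 3642 in Cox-1 KO and 1037 to 1944 in wild-type uteri. Alas2, the erythroid enzyme of haem synthesis, had 1240, 683, 1188 and 2546 in Cox-1 KO and 344, 555, 982 and 1125 in wild-type uteri. Slc4a1, the anion exchanger of red cells, stayed at 128 to 478 in Cox-1 KO and 107 to 154 in wild-type uteri, and Hbb-b2 at 202 to 390 in Cox-1 KO and 150 to 352 in wild-type uteri. Of 19 trophoblast genes 10 had a probe set and 9 passed the filter, with no array pattern either. Their summed signal was 37119 to 50005 in Cox-1 KO and 15301 to 53362 in wild-type uteri, lowest in wild-type uterus 1. Prl2a1, a placental prolactin, had 14344, 19260, 15264 and 12036 in Cox-1 KO and 3800, 15562, 15571 and 11205 in wild-type uteri. Prl8a9, of the same family, ranged over 5.57-fold and the pregnancy-specific glycoprotein Psg21 over 6.47-fold, each with its highest signal in wild-type uterus 2. Platelet genes, of which 5 of 10 passed the filter, had summed signals of 6395 to 7928 in Cox-1 KO and 6355 to 7048 in wild-type uteri. Ppbp, a platelet chemokine, had 1487, 493, 1396 and 369 in Cox-1 KO and 258, 319, 365 and 299 in wild-type uteri. Gp1bb and Clec1b ranged over 1.93-fold and 1.68-fold. Among the uterine genes the widest ranges were 1.58-fold for Hoxa10, 1.52-fold for Hoxd10 and 1.49-fold for Emx2.

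The genes most like Afp over the 8 arrays were sought among genes outside the group, by the root mean square difference of log2 signal after each probe set was centred on its own mean. The nearest were Tff3, a trefoil peptide of mucous epithelia, at 0.361, 4933402E13Rik at 0.423, Apoc2, an activator of lipoprotein lipase, at 0.428, Hnf4a at 0.44 and Lrp2 at 0.498. Within the group Alb lay at 0.577, Fga at 0.726, Ambp at 1.01, Slco1b2 at 1.04, Ttr at 1.14, Fgg at 1.62 and Fgb at 2.07 from Afp. Tff3 had 723, 26, 515 and 633 in Cox-1 KO uteri 1 to 4 and 18, 27, 30 and 454 in wild-type uteri 1 to 4. The measure is taken over 8 arrays that split into high and low ones, so it mostly gives how alike the sizes of that step are. Signals under 100 entered as measured, and those of Tff3 and Hnf4a on all 4 low arrays and of Fgb, with 11 on wild-type uterus 3, were near background, so the order of these distances is not firm.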

How the data were processed

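Uterine RNA of 4 Cox-1 KO and 4 wild-type mice was hybridized to 1 array each. The authors computed MAS5 signal intensity, with 1000 as the common scaling target. Deposited intensities are linear and whole, cover 28000 probe sets and carry no detection calls. Array medians were 731 to 757, and 2 arrays correlated at 0.944 to 0.976. Per the labels, the samples are separate by replicate number. Genes were named from the platform annotation, except Ptgs1, whose probe set the study's additional file names. The genes, lists and tests were chosen with earlier results of these data known.

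Signals under 1 (1 value) were set to 1 and taken as log2. Of the probe sets other than the 60 array controls, those reaching 100 on 4 arrays or more were compared with limma 3.58.1 (R 4.3.3, trend on mean signal, Benjamini-Hochberg, threshold 0.05). It takes the place of a detection call, which the methods used. Tested on simulated data for 26444 probe sets of this comparison, the fit called 37, 48, 50 and 49 of 50 changed by 1, 2, 3 and 4 on the log2 scale, and 10 of 26244 unchanged. The changed probe sets were drawn at random from all of them. Their median SD was 0.168 among Cox-1 KO and 0.166 among wild-type arrays, against 3.0 and 2.96 for the plasma protein genes. The recovery therefore does not apply to the plasma protein genes. A gene stood in a list by its brightest kept probe set. By rule, the genes named are the members, and of each other list the 3 with the largest range over arrays and any past the threshold (there were none). The 5 genes nearest to Afp follow the same rule. Genes named for a narrow range (Rbp4, F3, F13a1, Zbtb20, Cebpb, Fcgrt, Tfrc, Tmprss2, Slc39a4) were chosen after their values were seen. So were Tdo2, named for its part in a summed signal, and Foxa3, named for its order of arrays. The alternatives were other constants, filters, normalizations, variance models, a replicate block, weights for arrays, leaving out single arrays and the methods' t-test. The number of arrays limits precision. Protein sequences were not used here. Promoter sequences are from RefSeq (GRCm38.p6). The array build and how the 28000 probe sets were chosen are not given in the sources used here.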

Additional observations from a re-analysis of the deposited data

Results flagged for a closer look

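Within each genotype a single array lay far from the other 3 for most of these genes, on the log2 scale, as the gap to its nearest neighbour divided by the range of the 4 arrays. For Cox-1 KO uterus 2, which was below the others, this share was 0.926 for Alb, 0.978 for Afp, 0.964 for Ttr, 0.839 for Fgg, 0.866 for Ambp and 0.974 for Slco1b2. For wild-type uterus 4, which was above the others, it was 0.949 for Alb, 0.857 for Afp, 0.878 for Ttr and 0.964 for Fga. All exceed Dixon's critical value for 4 samples. It was passed by 5.54% of all probe sets among Cox-1 KO arrays and by 5.59% among wild-type arrays, and by 12 and 8 of the 14 probe sets of the plasma protein genes. These genes were chosen by the same signals, so passing it describes them and says nothing about chance. Fgb did not pass in either genotype, but signals under 100 entered as measured, among them its 11 on wild-type uterus 3. On Cox-1 KO uterus 2 Fgg had 88, Ambp 70 and Slco1b2 12, so their shares are not firm either.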

How the results depend on the processing

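All 14 probe sets of the plasma protein genes kept a higher mean log2 signal in Cox-1 KO uteri in every limma fit run, with fold changes of 0.80 to 6.79 on the log2 scale, and none passed in any of them (lowest adjusted p = 0.0966). The methods' t-test passed 1 at its own thresholds and none after adjustment. Over all probe sets the 3 that passed became 12 when signals under 100 were set to 100, 18 with array weights, 10 when 32 was added before log2, 6 in a robust fit, 11 after median centring and 228 with the methods' t-test, and the cause was not tested. Leaving out 1 array gave 2 to 25, with 25 without wild-type uterus 1 and 9 without Cox-1 KO uterus 2 or 4. The replicate block gave 3 calls, and with it 13 of the 14 had an unadjusted p under 0.05 in place of 8, against 1 without a trend or in the robust fit. Deviations of same-numbered arrays correlated at -0.25, 0.22, -0.18 and 0.17, so the replicate numbers were not taken to pair the arrays. The median range of the plasma protein genes was 6.28 to 7.33 on the log2 scale under the alternatives. Their median residual level was 0.621 to 1.28%, taken here as the inverse of that range, so it is no separate result. It includes Fgb, Fgg, Ambp and Slco1b2, for which no residual level can be given. Among the alternatives was signals under 1 set to 1, which was chosen after seeing the data. Signals under 100 limit the residual level of Fgb, Fgg, Ambp and Slco1b2, and signals of 100 to 117 that of Fga on wild-type uteri 1 to 3.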
